A study of Mus musculus with 18 samples.

Results

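Interferon-stimulated genes are the genes that cells switch on when they sense an interferon, a secreted signal of infection or damaged nucleic acid. The 37 genes described here are a list of such genes and were found on the array by the RefSeq accession of their probes, with the brightest probe standing for a gene that had several. They are 37 of the 20145 gene symbols that the array could be matched to. Of these, 35 passed the filter on dim probes, as did 14543 of the 20145 symbols, and Oas3 and Rsad2 did not. The tissue was the dorsal root ganglion of the mouse, cut out and cultured whole, where the axons of sensory neurons are ensheathed by Schwann cells in the dish. The ganglia came from C57BL/6J embryos of embryonic day 13.5 and were kept on matrigel in growth medium for 12 days. Day 0 was taken just before a myelination medium was added, day 10 at early myelination and day 22 when mature sheaths were abundant. The sample titles number the samples by mouse, and the series' design text gives those numbers as batches of ganglia. Each day had 3 such batches, each from embryos pooled at a different collection, and 2 technical arrays per batch, which made 6 arrays per day and 18 in all. All groups had the same strain and no transgene is named in the labels. All samples after day 0 had the myelination medium, and its action and that of age in the dish cannot be told apart.

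In the canonical pathway, interferons of type I and type III bind receptors at the cell surface, the attached Janus kinases phosphorylate STAT proteins, STAT2 among them, and these join IRF9 in a complex that enters the nucleus. The complex binds a short promoter element, the interferon-stimulated response element, whose core is a pair of GAAA blocks set a few bases apart. Interferon gamma acts mainly through another element, the gamma-activated site. The products of the target genes block virus entry, translation and replication, sense viral RNA, or feed back on the pathway. In tissue of the nervous system, glia, neurons and resident macrophages can all respond to interferon.

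The RefSeq promoter table (GRCm38.p6, 250 bases before to 50 bases after each transcript start) held an entry for 29 of the 37 genes. It was searched on both strands for the response element core, GAAANNGAAA, with overlapping matches counted, and 17 of the 29 genes (58.6%) held at least 1 match against 3.99% of all 27025 genes in the table (3.44% of its 32851 promoters). The gamma-activated site, TTCNNNGAA, which reads the same on both strands, was found in 7 of the 29 (24.1%) against 9.55% of all genes (8.30% of promoters). These are matches of letters and not measured binding. The stretches below are those of genes that the results turn on, each 80 bases long and written 5' to 3' along the gene's strand, with each match to GAAANNGAAA, on either strand, in capitals.
Ifit1: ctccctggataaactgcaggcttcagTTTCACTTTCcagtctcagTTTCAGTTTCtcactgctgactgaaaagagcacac
Ifit3: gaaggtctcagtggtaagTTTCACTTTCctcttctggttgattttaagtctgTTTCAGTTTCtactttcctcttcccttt
Oas1a: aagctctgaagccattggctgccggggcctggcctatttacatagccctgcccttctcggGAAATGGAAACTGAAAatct
Isg15: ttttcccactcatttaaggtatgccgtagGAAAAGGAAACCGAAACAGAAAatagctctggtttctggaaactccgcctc
Trim30a: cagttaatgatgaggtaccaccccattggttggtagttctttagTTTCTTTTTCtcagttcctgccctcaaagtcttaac
Bst2: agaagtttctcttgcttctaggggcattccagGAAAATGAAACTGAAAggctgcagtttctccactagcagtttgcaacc
Irgm1: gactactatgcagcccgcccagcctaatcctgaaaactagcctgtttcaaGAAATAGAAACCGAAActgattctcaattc
Stat2: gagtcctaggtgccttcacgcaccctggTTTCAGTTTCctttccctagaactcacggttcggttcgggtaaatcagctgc
The Ifit1 stretch is chr19:34640759-34640838 on the plus strand, and its nearer match begins at position -85 from the transcript start. The Ifit3 stretch, chr19:34583355-34583434 on the plus strand, holds 2 matches as well. The matches of Oas1a (chr5:120907526-120907605, minus strand) and of Isg15 (chr4:156200846-156200925, minus strand) overlap each other, with 2 in the former and 3 in the latter. Trim30a (chr7:104465194-104465273, minus strand) has 1 match in the promoter shown, at position -36, and another promoter of the gene in the table also has 1. Bst2 (chr8:71537555-71537634, minus strand) and Irgm1 (chr11:48871421-48871500, minus strand) have 2 each. Stat2 (chr10:128270248-128270327, plus strand) has 1, which begins at position -222. Genes with an entry and no match were Cmpk2, Dtx3l, Herc6, Ifi35, Ifi44, Ifit2, Irf7, Irf9, Oasl1, Oasl2, Trim25 and Xaf1. Their letters are absent from this window only, and nothing follows for more distant sequence.

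A level is the log2 intensity of the gene's probe minus the array's 75th percentile of log2 intensity. A change is the log2 difference between the means of 3 batches per day, given ± its standard error from limma fitted to the 9 batch means. Levels of different genes come from different probes and are not compared. The 3 levels given for a day are the lowest, the median and the highest of its 6 arrays. The number of arrays limits the precision, and 54.8 to 61.5% of the spots of an array were well above background. The authors' value table places 12 of the 18 arrays in another batch of the same day than the array files do, without moving any array to another day. Each test was therefore run with both assignments, and the words rose and fell are kept for genes where its adjusted p (Benjamini-Hochberg over 22855 features) was below 0.05 in both. With an assignment that mixes batches, a batch value averages arrays of different batches, and its standard error can be too small. Over all features the median SD within a pair was lower with the value table on each day. It was 0.179, 0.119 and 0.165 on days 0, 10 and 22, against 0.218, 0.147 and 0.188 with the array files. Over the 35 genes it was lower on days 0 and 22 but not on day 10 (0.192 against 0.176). Which assignment is right was not tested. All 10 Schwann cell markers and 12 sensory neuron markers looked for passed the filter, with mean levels of 4.50 to 5.97 and of 3.79 to 5.09 on the 18 arrays. Where 2 adjusted p-values follow a change, the first is with the batches of the array files and the second with those of the value table. The standard errors given are with the batches of the array files alone. With those of the value table they were often larger. From day 0 to day 22 the standard error was 0.34 in place of 0.12 for Ifit3, though 0.21 in place of 0.24 for Oasl1. In bulk RNA, more cells of a type and more RNA per cell cannot be told apart.

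Averaged over the genes, levels were higher on day 10 than on day 0 and higher again on day 22. The mean level of the 35 genes was -1.30 to -0.73 on the arrays of day 0, -0.25 to 0.20 on those of day 10 and 0.29 to 1.64 on those of day 22. The ranges of the 3 days do not overlap. From day 0 to day 22, 28 of the 35 rose and 0 fell (30 and 0 with the batches of the array files alone), where 12.6% of all features rose and 18.6% fell (17.1 and 27.3% with the array files alone, 13.0 and 19.2% with the value table alone). The median change of the 35 was 1.47, with a range of -0.14 to 4.27, against -0.08 over all features. From day 0 to day 10, 15 rose and 0 fell, where 5.71% of features rose and 7.68% fell. With the batches of the array files alone 26 were higher and 1 lower (11.4 and 17.8% of features). The value table's batches gave 15 higher and 0 lower (5.85 and 7.90%), and with the batch number as a block as well 23 and 0 (7.40 and 8.82%). From day 10 to day 22 the call depended on the batches. With the array files 18 were higher and 0 lower (4.19 and 5.40% of features), the value table gave 1 and 0 (0.525 and 1.45%), and the value table together with the block 8 and 0 (1.38 and 1.70%). Both assignments called 1 gene higher and 0 lower, against 0.490 and 1.43% of features. At an unadjusted p under 0.05 those counts were 28 with the array files (12.0% of features higher) and 23 with the value table (8.16%). Counted over single arrays, 26 of the 35 genes had all 6 arrays of day 22 above all 6 of day 0, and 0 had them all below, as 9.58 and 13.3% of features did. Between days 0 and 10 this held for 18 and 0 (7.92 and 9.18% of features), and between days 10 and 22 for 12 and 0 (3.15 and 5.47%).

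Of the 35, 30 were well above background on every array of all 3 days. The other 5 (Ifit1, Oas2, Usp18, Trim30a and Ifi44) passed the filter through a later day, which favours a difference from day 0. Among the 30, 23 rose and 0 fell from day 0 to day 22, with a median change of 1.40, and 12 rose from day 0 to day 10, with a median of 0.72. The 12.6 and 5.71% of features that rose over these intervals include features that passed the filter through 1 day only. No share was counted over the features measured on every array, so the counts of the 30 have no matching background. The median change of the 35 was 0.82 in the interval up to day 10 and 0.62 in that up to day 22, and a test of the difference between the intervals called 0 of the 35 with either assignment (3.54% of features with the array files, and 0 features if the value table sets the batches), which does not show that the intervals were alike.

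**Figure D1:**
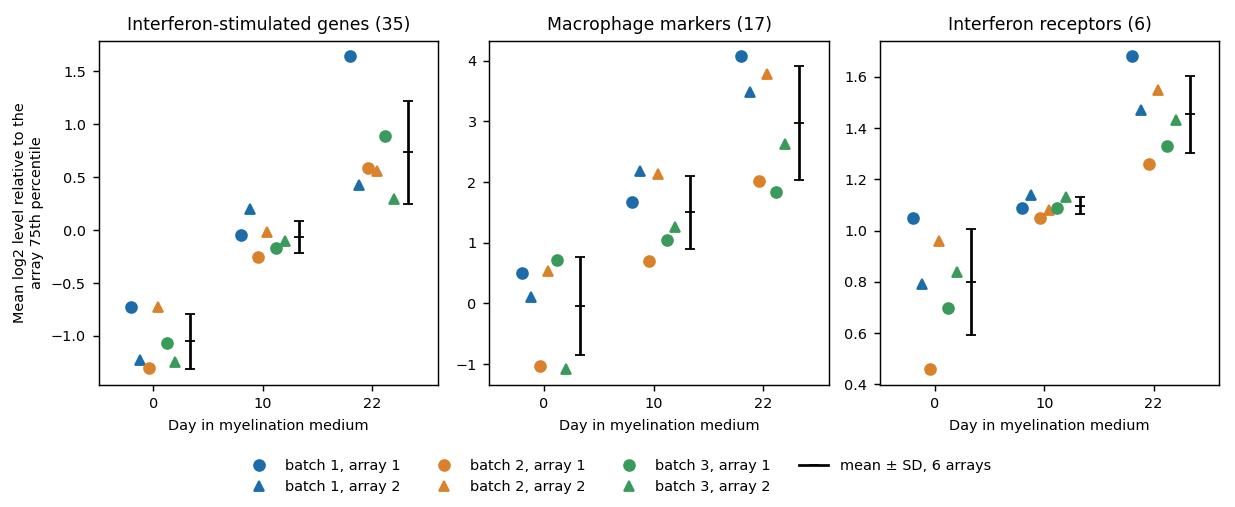
Mean log2 level relative to the array's 75th percentile (y axis) against day in myelination medium (x axis) for 35 interferon-stimulated genes, 17 macrophage markers and 6 interferon receptors. Each point is 1 array, coloured by batch, and bars are the mean ± SD of 6 arrays. For the interferon-stimulated genes the day ranges of -1.30 to -0.73, -0.25 to 0.20 and 0.29 to 1.64 do not overlap, and 1 array of day 22 stands at 1.64 above the next at 0.89.

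Of the IFIT genes, whose products bind viral RNA that lacks the host cap and block its translation, 2 of 3 rose from day 0 to day 22. Ifit1 stood at -5.25, -4.86 and -4.30 on day 0, where 5 of 6 arrays were well above background, at -3.10, -3.01 and -2.41 on day 10 and at -2.89, -1.72 and 0.42 on day 22. The days 0 and 10 do not overlap, while day 22 reaches down into day 10. Ifit1 rose by 1.89 ± 0.26 to day 10 (adjusted p = 0.00186, and 0.0182 with the value table) and by 3.47 ± 0.26, 11.1-fold, to day 22 (adjusted p = 4.33e-05 and 0.000507). Ifit3 stood at -0.04, 0.56 and 1.11 on day 0, at 0.98, 1.26 and 1.74 on day 10 and at 1.42, 2.46 and 3.84 on day 22. Each day overlaps its neighbour, but day 22 lies wholly above day 0, and the rise to day 22 was 1.98 ± 0.12 (adjusted p = 2.09e-05 and 0.0037). Ifit2, the other member of the family, did not rise. Its levels were -0.54, -0.15 and -0.03 on day 0, -0.82, -0.64 and -0.43 on day 10 and -0.91, -0.35 and 0.10 on day 22, with overlap between all days. It was the only 1 of the 35 that was lower on day 10 under the array files' batches (-0.43 ± 0.11, adjusted p = 0.0243), and it did not pass with those of the value table (adjusted p = 0.152). Its difference from day 0 to day 22 was -0.11 ± 0.11.

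The OAS genes encode the oligoadenylate synthetases, which are activated by double-stranded RNA and switch on RNase L, and related proteins. All 4 that were tested rose from day 0 to day 22. Oas1a stood at -4.25, -3.09 and -2.00 on day 0, at -2.46, -1.23 and 0.14 on day 10 and at 0.24, 0.87 and 3.23 on day 22. Every array of day 22 was above every array of day 10, and days 0 and 10 overlap. It rose by 4.27 ± 0.43, 19.4-fold, to day 22 (adjusted p = 0.000164 and 0.00175), the largest change among the 35 genes. Oas2, which was well above background on 3 of 6 arrays of day 0, stood at -6.84, -5.59 and -4.49 on that day, at -4.98, -4.14 and -3.30 on day 10 and at -2.90, -2.23 and 0.89 on day 22. It rose by 3.81 ± 0.52 to day 22 (adjusted p = 0.000664 and 0.00333). For Oas1a and Oas2 the difference from day 10 to day 22, 2.29 ± 0.43 and 2.36 ± 0.52, passed with the array files (adjusted p = 0.0173 and 0.029), also with the value table and block (adjusted p = 0.0356 and 0.0325), but not with the value table alone (adjusted p = 0.105 and 0.108). Oasl1, an inhibitor of Irf7 translation, rose by day 10. It stood at -4.21, -3.38 and -2.89 on day 0, at -1.82, -1.36 and -0.64 on day 10 and at -1.37, -0.65 and -0.12 on day 22. Its rise to day 10 was 2.09 ± 0.24 (adjusted p = 0.000985 and 0.00249), and from day 10 to day 22 it differed by 0.66 ± 0.24 (adjusted p = 0.13). Oasl2 rose by 1.75 ± 0.24 from day 0 to day 22, although the arrays of those days overlap. Oas3 was well above background on 1 of 18 arrays, the first array of batch 1 on day 22, where it stood at -4.12 against at most -7.06 on the other 5 of that day.

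All 5 sensors and the kinase among them, Eif2ak2, rose from day 0 to day 22, and 4 of the 5 by day 10. Zbp1, a sensor of left-handed nucleic acid that can start necroptosis, stood at -2.89, -2.75 and -1.46 on day 0, at -1.16, 0.13 and 0.56 on day 10 and at 0.93, 1.41 and 2.53 on day 22. No 2 of its days overlap. It rose by 2.52 ± 0.27 to day 10 (adjusted p = 0.00072 and 0.00357) and by 4.05 ± 0.27, 16.6-fold, to day 22 (adjusted p = 2.68e-05 and 0.000142). Zbp1 was the 1 gene of the 35 to rise from day 10 to day 22 (1.53 ± 0.27), with an adjusted p of 0.0133 with the array files and 0.0499, close to the threshold, with the value table. Dhx58 encodes LGP2, which modulates the RNA sensors RIG-I and MDA5. It stood at -4.70, -4.29 and -3.79 on day 0, at -3.28, -3.05 and -2.65 on day 10 and at -2.40, -2.10 and -0.31 on day 22, again with no overlap between days. Its rise to day 22 was 2.48 ± 0.20 (adjusted p = 6.65e-05 and 0.00142). Ifih1, which encodes MDA5, stood at -1.37, -1.01 and -0.57 on day 0, at -0.14, -0.01 and 0.22 on day 10 and at 0.33, 0.40 and 0.96 on day 22. Its days are also apart, and it rose by 0.99 ± 0.11 to day 10 (adjusted p = 0.000814 and 0.00681) and by 1.52 ± 0.11 to day 22. Eif2ak2, the kinase PKR that halts translation when it binds double-stranded RNA, rose by 1.15 ± 0.14 from day 0 to day 22, and Ddx58, which encodes RIG-I, by 0.81 ± 0.12.

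The transcription factors of the pathway differed from each other. Irf7, which drives the later wave of type I interferon genes, stood at -4.78, -4.35 and -3.29 on day 0, at -3.11, -2.75 and -2.32 on day 10 and at -2.89, -2.40 and -0.19 on day 22. Day 0 lies below both later days. Irf7 rose by 2.15 ± 0.29 to day 22 (adjusted p = 0.000603 and 0.00528), while its difference at day 10, 1.39 ± 0.29, passed with the array files (adjusted p = 0.00871) and fell just short with the value table (0.0528, and 0.0141 with the block). Irf9, the DNA-binding partner of STAT2, stood at 0.55, 0.72 and 1.10 on day 0, at 1.21, 1.32 and 1.53 on day 10 and at 1.63, 1.83 and 2.60 on day 22, with no overlap between days. It rose by 1.18 ± 0.12 to day 22 (adjusted p = 0.000175 and 0.00129). Stat2 stood at 1.89, 2.43 and 2.78 on day 0, at 2.45, 2.61 and 2.81 on day 10 and at 2.09, 2.52 and 2.68 on day 22, so the arrays of the 3 days overlap. It differed by 0.04 ± 0.13 from day 0 to day 22 (adjusted p = 0.836), and the sign of that difference turned without the first array of batch 1 of day 22 (-0.06).

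Isg15, Usp18, Trim25 and Herc6 act in conjugation by ISG15, a ubiquitin-like protein, and Trim30a, Dtx3l, Parp9 and Parp14 in ubiquitin or ADP-ribose signalling. Of these 8 genes 5 rose from day 0 to day 22. Isg15 itself stood at 1.10, 1.24 and 2.00 on day 0, at 2.46, 2.75 and 3.09 on day 10 and at 2.74, 3.28 and 4.61 on day 22. Day 0 lies below both later days, and Isg15 rose by 1.33 ± 0.13 to day 10 (adjusted p = 0.000545 and 0.0112) and by 2.11 ± 0.13 to day 22. Usp18, which removes ISG15 and damps the type I receptor, stood at -5.11, -4.36 and -4.16 on day 0, where 5 of 6 arrays were well above background, at -3.48, -3.04 and -2.49 on day 10 and at -3.43, -1.70 and 0.04 on day 22. It rose by 1.44 ± 0.33 to day 10 (adjusted p = 0.0137 and 0.0424) and by 2.82 ± 0.33 to day 22 (adjusted p = 0.00033 and 0.0013). Trim30a was well above background on 1, 5 and 6 of the 6 arrays of days 0, 10 and 22. It stood at -7.29, -6.02 and -5.53 on day 0, at -5.43, -4.38 and -3.40 on day 10 and at -3.67, -2.55 and -0.52 on day 22, and it rose by 3.76 ± 0.46 from the first to the last (adjusted p = 0.000402 and 0.0018). The size of that difference rests on day 0 signals of which 5 were not well above background. Trim25, the ligase that activates RIG-I, rose by 1.46 ± 0.15. Changes of the others were smaller. Parp9 stood at 0.63, 1.16 and 1.21 on day 0, at 1.0, 1.19 and 1.27 on day 10 and at 1.28, 1.44 and 1.78 on day 22, and it rose by 0.46 ± 0.09, 1.37-fold, to day 22 (adjusted p = 0.00412 and 0.0123). Its binding partner Dtx3l (0.46 ± 0.13) and Parp14 (0.53 ± 0.13) passed with the array files (adjusted p = 0.0216 and 0.0112) and not with the value table (0.0809 and 0.0552). Herc6, the mouse ligase for ISG15, differed by 0.45 ± 0.16 (adjusted p = 0.0527).

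Of the 7 other effectors tested 6 rose both to day 10 and from day 0 to day 22. Rtp4, a chaperone for receptors that also restrains viruses, stood at -3.11, -2.10 and -1.37 on day 0, at 0.06, 0.46 and 1.13 on day 10 and at 1.01, 1.87 and 3.90 on day 22. Day 0 is far below the others, and Rtp4 rose by 2.67 ± 0.33 to day 10 (adjusted p = 0.00116 and 0.00634) and by 4.20 ± 0.33, 18.4-fold, to day 22. Ifi44, of which little is known, was well above background on 0, 4 and 6 of the 6 arrays of days 0, 10 and 22, at -8.06, -7.20 and -6.28, then -6.18, -4.48 and -3.00, then -4.70, -3.77 and -2.22. Day 0 therefore gives only a bound for it, and with the dim arrays set to the lowest signal that counted as measured Ifi44 was higher on day 22 than on day 0, at least 4.0-fold (adjusted p of the fit = 0.000232 and 0.00223). Bst2 encodes tetherin, which holds budding virus at the cell surface. It stood at 1.16, 1.64 and 1.78 on day 0, at 2.52, 2.86 and 3.27 on day 10 and at 3.45, 3.57 and 5.19 on day 22, with no overlap between days, and it rose by 2.36 ± 0.21 from day 0 to day 22 (adjusted p = 8.33e-05 and 0.00121). Ifi35 had the narrowest spread on day 22 among the 35. Its levels were 1.37, 1.55 and 1.87 on day 0, 2.07, 2.26 and 2.41 on day 10 and 2.23, 2.53 and 2.70 on day 22. It rose by 0.68 ± 0.10 to day 10 (adjusted p = 0.00223 and 0.00718) and differed by 0.23 ± 0.10 after that. Ifitm3, which blocks virus fusion, rose by 1.44 ± 0.16 and Xaf1, a pro-apoptotic gene, by 1.35 ± 0.10 from day 0 to day 22. The mitochondrial nucleotide kinase Cmpk2 differed by -0.14 ± 0.10 (adjusted p = 0.306). Rsad2, which encodes viperin and neighbours Cmpk2 in the genome, was well above background on 0, 4 and 5 of the 6 arrays and reached at most -6.12, -4.05 and -1.77 on days 0, 10 and 22.

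The GTPases, which attack the vacuoles of intracellular pathogens and respond strongly to interferon gamma, rose in 4 of 5 cases from day 0 to day 22. Igtp stood at -0.54, -0.30 and 0.67 on day 0, at 0.78, 0.90 and 1.10 on day 10 and at 1.10, 1.43 and 2.08 on day 22. Day 0 lies below both later days, and Igtp rose by 1.55 ± 0.14 to day 22 (adjusted p = 8.84e-05 and 0.00497). Irgm1, which regulates the other immunity-related GTPases, stood at -0.74, -0.45 and 0.34 on day 0, at 0.05, 0.25 and 0.66 on day 10 and at 0.63, 1.12 and 1.99 on day 22, and it rose by 1.47 ± 0.17 from day 0. Gbp3 stood at 0.36, 0.66 and 1.46 on day 0, at 1.04, 1.39 and 1.58 on day 10 and at 1.35, 1.95 and 2.66 on day 22, with overlap between all days. It rose by 1.18 ± 0.12 to day 22 (adjusted p = 0.000145 and 0.00763), and Gbp2 rose by 1.17 ± 0.17. At day 10 none of the GTPases passed with the value table, while 4 were higher with the array files, and with the block Igtp (adjusted p = 0.0291) and Irgm1 (0.0416) passed with the value table too. The value table's batch 1 held the 2 high arrays of day 0 for Igtp (batch mean 0.66 against -0.30 and -0.51) and for Gbp2 (1.63 against 0.53 and 0.62). Iigp1 stood at -2.32, -1.43 and -1.26 on day 0, at -2.03, -1.85 and -1.74 on day 10 and at -1.90, -1.69 and -1.41 on day 22. It differed by -0.06 ± 0.14 from day 0 to day 22 (adjusted p = 0.762), and the sign of that small difference depended on the arrays used.

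**Figure D2:**
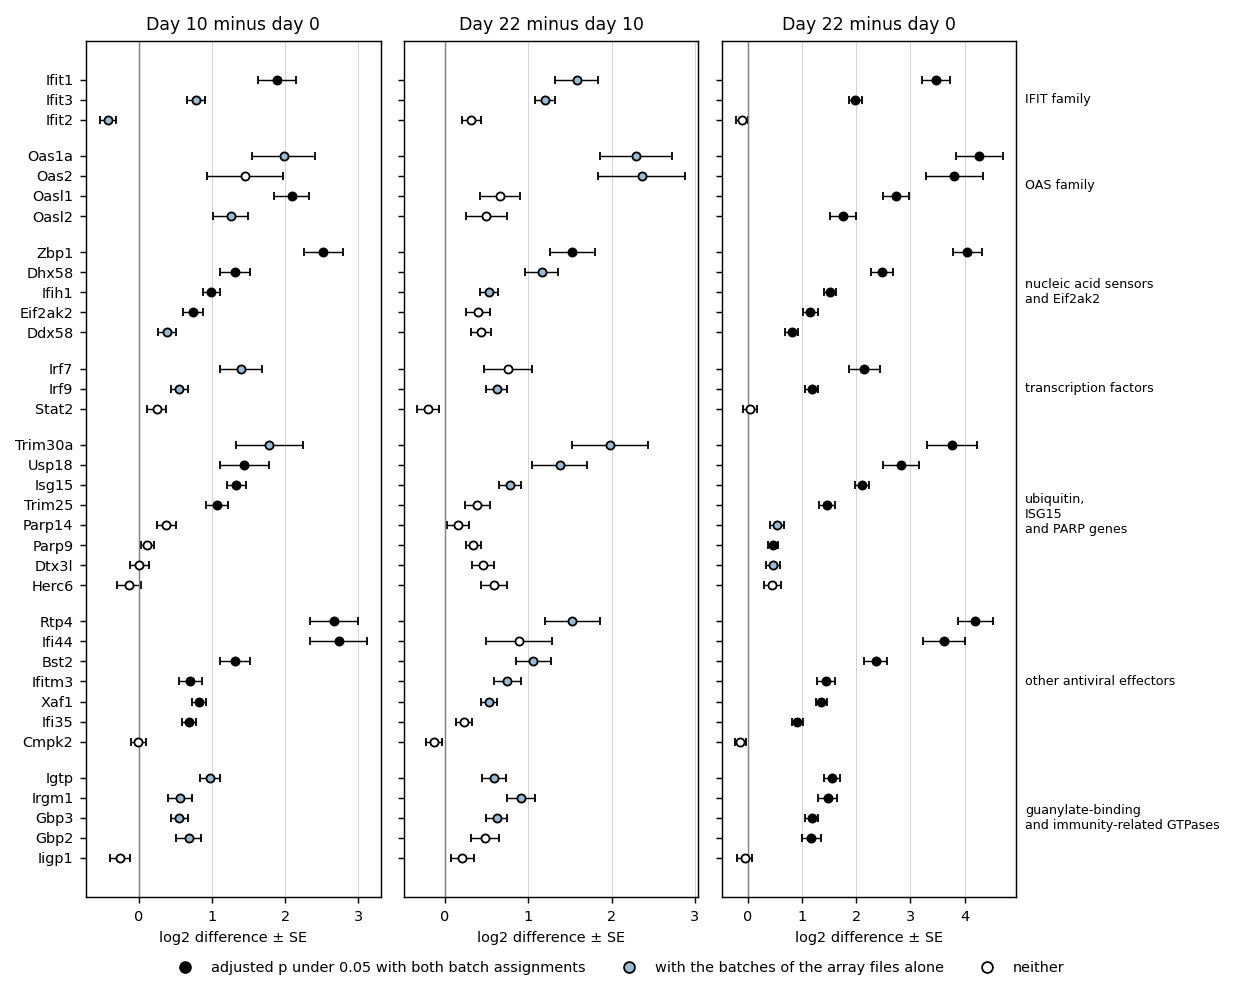
Log2 difference ± standard error of the limma fit (x axis, n = 3 batches per day) for the 35 genes (y axis, grouped by role) in the 3 comparisons. The standard errors drawn are with the batches of the array files and were often larger with those of the value table. Black points passed an adjusted p of 0.05 with both batch assignments, blue points with the batches of the array files alone and white points with neither. From day 0 to day 22, 28 are black, led by Oas1a at 4.27, whereas from day 10 to day 22 Zbp1 alone is.

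A further probe was compared for 11 of the 35 genes, and it was not required to pass the filter on dim probes. It had the same sign as the brightest probe from day 0 to day 22 for 10 of them, with 3.62 for Oas1a, 3.49 for Zbp1, 2.12 for Isg15 and 1.46 for Irgm1. It differed more for Herc6 (1.18 against 0.45) and for Xaf1 (0.69 against 1.35, and -0.02 against 0.82 from day 0 to day 10). Those other probes were well above background on 14 and 7 of 18 arrays. The other probe of Iigp1 differed too, with 0.99, but was well above background on 1 of 18 arrays.

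Upstream of these genes, no interferon passed the test. Of 21 interferon genes looked for, 16 had a probe and 7 were measured, namely Ifna1, Ifna2, Ifna5, Ifna12, Ifna14, Ifnab and Ifnl3. None passed in any comparison with either assignment, and their changes from day 0 to day 22 lay between -0.26 (Ifnab) and 0.07 (Ifnl3). The interferon alpha genes are close paralogs that a probe may not tell apart, so their single values are uncertain. Of the 6 receptor chains 4 rose from day 0 to day 22. Ifnlr1, the specific chain of the type III receptor, was well above background on 2 of 6 arrays of day 0, at -7.31, -5.89 and -4.63, and stood at -4.81, -4.20 and -4.12 on day 10 and at -3.93, -3.66 and -3.51 on day 22. It rose by 2.16 ± 0.20 (adjusted p = 0.000112 and 0.003), having passed the filter through the later days, so the size of its difference is uncertain. Il10rb, the chain it shares with receptors of the interleukin-10 family, stood at 0.15, 0.39 and 0.46 on day 0 and at 1.03, 1.36 and 1.66 on day 22, and it rose by 0.97 ± 0.10 (adjusted p = 0.00016 and 0.00123). The type I chain Ifnar2 rose by 0.53 ± 0.08 and the type II chain Ifngr1 by 0.36 ± 0.09. Ifnar1 was lower with the array files (-0.30 ± 0.07, adjusted p = 0.0126) and just missed with the value table (0.0514), and Ifngr2 differed by 0.18 ± 0.15 (adjusted p = 0.364).

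The Janus kinases, which carry the signal from the receptors, changed little. Of Jak1, Jak2 and Tyk2, Jak2 alone rose from day 0 to day 22, by 0.26 ± 0.07 (adjusted p = 0.0197 and 0.0424). Jak1 differed by 0.20 ± 0.07 (adjusted p = 0.0412 and 0.15). Among 16 genes that induce interferon 9 rose and 1 fell from day 0 to day 22. The regulators Irf5 and Irf8 had the largest changes, 3.28 ± 0.42 and 3.15 ± 0.43 (adjusted p = 0.000508 and 0.0032 for Irf5, 0.000657 and 0.00579 for Irf8). Irf8 stood at -2.96, -1.74 and -1.29 on day 0 and at -0.23, 1.21 and 2.58 on day 22. Both are also expressed by macrophages. Of 10 genes that restrain the pathway 4 rose and 1 fell, and the 2 largest were the exonuclease Isg20 (3.39 ± 0.18, adjusted p = 1.15e-05 and 8.74e-05) and the phosphatase Ptpn6 (2.10 ± 0.40, adjusted p = 0.00323 and 0.0106). Isg20 is induced by interferon as well. Of 53 further interferon-stimulated genes looked for, 41 were tested, 24 rose and 1 fell from day 0 to day 22, with a median change of 1.16. Ifi27l2a rose by 3.84 ± 0.61 (adjusted p = 0.00144 and 0.00506) and stood at 1.41, 2.43 and 6.21 on day 22, and Phf11d, which was well above background on 3 of 6 arrays of day 0 and passed the filter through the later days, by 3.76 ± 0.40 (adjusted p = 0.000215 and 0.00232). These lists are read against the 12.6% of features that rose and the 18.6% that fell.

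The arrays of day 22 were spread more widely for these genes than for most features. The SD over 6 arrays had a median of 0.423 over the 35 genes on day 22, against 0.215 over all features, and 31 of the 35 were above the latter. The medians were 0.369 against 0.224 on day 0 and 0.216 against 0.153 on day 10, with 31 and 22 of the 35 above the median of all features. The wider spread was therefore not particular to day 22. On day 22 the SD was at least 1 for 8 genes, where 3.05% of all features reached that, but without the first array of batch 1 it was so for 1 gene, Usp18, and for 1.86% of features. It was largest for Oas2 (1.41, and 0.43 without that array), Usp18 (1.31 and 1.15) and Ifit1 (1.22 and 0.96), and smallest for Ifi35 (0.16), Iigp1 (0.18) and Parp9 (0.19).

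**Figure D3:**
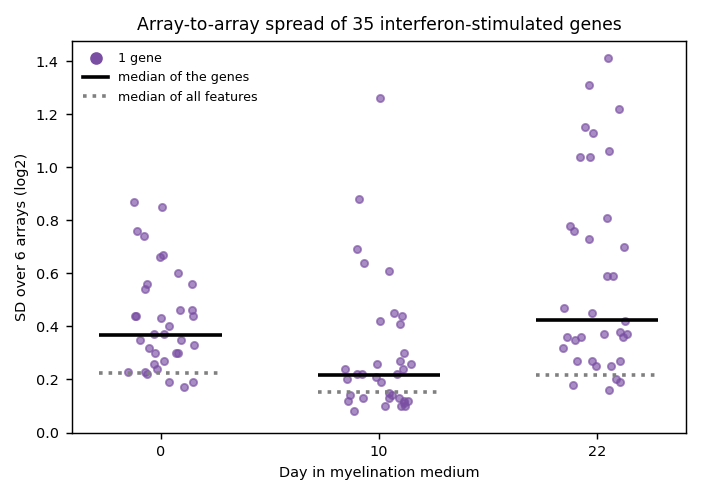
SD over the 6 arrays of a day in log2 units (y axis) for each of 35 interferon-stimulated genes (points), by day in myelination medium (x axis). Solid lines mark the median of these genes, 0.369, 0.216 and 0.423, and dotted lines that of all features, 0.224, 0.153 and 0.215. On day 22 the SD of 8 genes is at least 1, and without the first array of batch 1 (not drawn) that of 1 gene would be.

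On day 22, 1 array stood above the others for most of these genes. The first array of batch 1 was the highest of the 6 for 31 of the 35 genes, whereas it was the highest for 18.2% of all features and the lowest for 33.7%. It stood at least 1 above the median of the 6 arrays for 14 genes, compared with 4.36% of features. For Oas2 it read 0.89 against -2.90 to -1.97 on the other 5, for Oas1a 3.23 against 0.24 to 1.57, for Dhx58 -0.31 against -2.40 to -1.61 and for Trim30a -0.52 against -3.67 to -1.93. Exceptions were Ifit2, Herc6, Parp14 and Ifi35, for which another array was highest. On the earlier days 1 array also led for many of the genes. It was the first array of batch 1 for 17 of the 35 on day 0 (14.3% of features). On day 10 it was the second array of batch 1 for 20 (14.4%). Which array is the technical partner of the high one depends on the assignment. In the array files it is the second array of batch 1 of day 22, the highest for 0 of the 35 and the lowest for 13. In the value table it is the second array of batch 2, the highest for 1 and the lowest for 1. The first array of batch 3 was the second in mean level, at 0.89, and its partner in the array files the lowest, at 0.29. The value table pairs it with the second array of batch 1, at 0.43. Usp18 and Ifit1 followed this order too, with -0.37 and -0.22 on the first array of batch 3 and -3.43 and -2.89 on the second. The SD within a pair was 0.480 over the 35 genes on day 22 with the array files, or 0.390 with the value table, against 0.188 and 0.165 over all features. In a limma F test between batches on day 22 with the array files, 0 of the 35 and 0 of all features passed (at an unadjusted p under 0.05, 0 of the 35 and 11.3% of features), and with the value table Ifit2 (adjusted p = 0.0338) and Bst2 (0.0229) passed, as did 8.79% of features. At an unadjusted p under 0.05 the value table gave 11 of the 35 and 27.0% of features. On day 0 the same test called 0 of the 35 with the array files (0.0263% of features) and 3, Gbp2, Iigp1 and Igtp, with the value table (7.46%), and on day 10 it called 0 with either (0 and 0.144%).

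**Figure D4:**
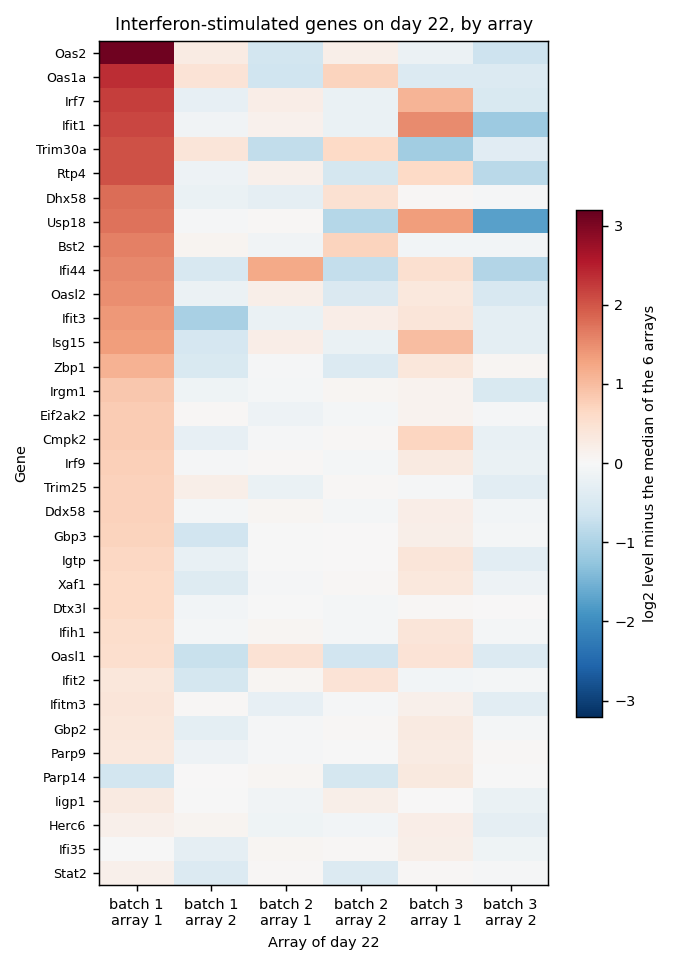
Log2 level of 35 interferon-stimulated genes (y axis) on each of the 6 arrays of day 22 (x axis), shown as the difference from the gene's median over those arrays (colour scale, log2). The first array of batch 1 is the highest for 31 of the 35 genes, and the first array of batch 3 is the next in mean level.

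Without the first array of batch 1 the median SD of the 35 genes on day 22 was 0.307, against 0.189 over all features. The rises from day 0 to day 22 were kept in number, 30 being higher with the array files, 29 with the value table, and the change was 3.33 in place of 3.81 for Oas2, 3.95 in place of 4.27 for Oas1a and 3.09 in place of 3.47 for Ifit1. From day 10 to day 22, 13 were higher with the array files in place of 18, and 0 with the value table, since Zbp1 (1.26) then had an adjusted p of 0.0816. For that interval the count with the array files was also 7 without batch 1 of day 10, 7 without its batch 2, 4 without its batch 3 and 11 without batch 2 of day 22. From day 0 to day 10 the 15 that passed with the value table were 6 without batch 2 or without batch 3 of day 0. They were 7, 8 and 5 without batches 1, 2 and 3 of day 10, but 24 without batch 1 of day 0. Leaving out arrays changes the test for every feature, and the share of all features called in these fits is not given. The counts are therefore not read as particular to these genes. Of the genes described by day above, Oasl1, Ifih1, Zbp1, Ifi35 and Rtp4 passed from day 0 to day 10 with both assignments whichever batch of those days was left out, whereas Ifit1, Dhx58, Usp18, Bst2, Ifi44 and Isg15 lost the call with the value table without at least 1 batch.

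Macrophage markers moved with the day too. Cd68 had no matched probe, and the other 17 of 18 were tested, all of them well above background on at least 5 of the 6 arrays of each day. Of these, 15 rose from day 0 to day 22, Lyz2 by 5.15 and Csf1r by 2.59, where 12.6% of all features rose. The mean level of the 17 was -1.08 to 0.72 on day 0, 0.70 to 2.19 on day 10 and 1.84 to 4.07 on day 22. Cx3cr1 and Itgam did not pass. From day 0 to day 10, 12 were higher with the array files, but 2 with the value table (11.4 and 5.85% of features). From day 10 to day 22 the counts were 10 and 0 (4.19 and 0.525% of features). Among the arrays of day 22 the first of batch 1 also had the highest macrophage mean, at 4.07. The same array had the highest mean of the fibroblast markers, 5.24 (3.66 to 5.06 on the others), and the lowest of the Schwann cell markers, 4.59 (5.35 to 5.85), and of the sensory neuron markers, 3.90 (4.05 to 4.75). The order of the other arrays differed between the 35 genes and the macrophage markers, since the second array of batch 2 had the next macrophage mean, 3.78, with a mean of 0.56 for the 35 genes, and the first array of batch 3 had the lowest macrophage mean, 1.84, with the second highest mean of the 35 genes, 0.89. The part of these cell types in the change of the interferon-stimulated genes was not tested. On the first array of batch 1 of day 22 the 7 interferon genes had a mean level of -3.68, the lowest of that day (-3.53 to -3.19 on the others). The first array of batch 1 was also the lowest for them on day 0, at -3.59, and on day 10, at -3.71, so the low value was not particular to day 22. Of 12 T, NK and B cell markers 3 were tested and 0 changed from day 0 to day 22 (2 were higher with the array files alone), and of 7 markers of plasmacytoid dendritic cells, the main source of interferon alpha in blood, 4 were tested, 1 rose and 1 fell. Over the same days 3 of 10 Schwann cell markers rose and 0 fell, and 0 of 12 sensory neuron markers rose and 1 fell. Of 8 fibroblast markers 1 rose and 2 fell, and of 6 endothelial markers 0 rose and 1 fell. Of all features 12.6% rose and 18.6% fell, so the counts of these short lists are not read as results about the cell types.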

How the data were processed

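Total RNA of 18 samples was measured on one-colour Agilent arrays. Per the file headers, spot intensity comes from Feature Extraction 10.7.1.1, Agilent's program, with background subtracted by it (the submitters' processing notes give version 10.7.1), and the deposited flags are 0 or 1. A value table, deposited too, holds linear intensity and has the same median, 33.7, in each column. How it was made beyond this, and any centring, is not given in the sources used here. The median SD of the interferon-stimulated genes was the same with it as with quantile normalization of the array files. With either it was 0.396, 0.220 and 0.432 on days 0, 10 and 22. For 6 columns it matches the file of the same sample and for 12 that of a different sample from that day.

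The level of a probe was its processed intensity in log2, less that of the array's 75th percentile (584 to 747). Outlier spots (93 to 181 per array) and 3671 control spots of 62976 were left out, and 0 were saturated. The filter asked for a signal well above background on every array of some day and kept 30432 of 55681 probes. The files hold accessions, which were matched to RefSeq symbols of assembly GRCm38.p6 (26582 probes, 1534 RefSeq probes unmatched). This is not the array's build, so no gene coordinates are given apart from those of the RefSeq promoters.

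After the mean of the 2 arrays of each batch was taken, limma 3.58.1 (R 4.3.3) was fitted to 9 values. The F test between batches used the 18 arrays. Genes were given values by a rule: in each role the 3 largest changes past the threshold from day 0 to day 22, genes called against the majority, the 3 largest and 3 smallest SDs of day 22, and Stat2, Irf9 and Irf7. In each other list of the pathway the rule named the 2 largest changes past the threshold, and every interferon and receptor tested. The members and the 13 other lists were chosen with earlier results of these data known. The number after mouse in the sample titles is a batch of ganglia in the series' design text. Same-numbered samples deviated from their day means with correlations of -0.12 to 0.37 across features (6 of 9 pairs above 0.1), and at -0.08 to 0.44 (8 of 9) with the batches of the value table.

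Alternatives were normexp background correction (offset 50, on the median signal, as the files hold no mean signal), quantile normalization, no filter, the mean of a gene's probes, the value table and its batches, the replicate block, the batch as a random block, slide as a block, each slide alone and left-out batches. The fit was tested on simulated data. One gene of the pathway lists is not reported here.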

Additional observations from a re-analysis of the deposited data

Results flagged for a closer look

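Of 111 groups of 6 arrays (37 genes on 3 days), 7 were flagged because the gap of an array to the nearest other was over 0.625 of the range. Chance gives about 1 in 20. On day 22 the first array of batch 1 stood apart for Oas2 (0.89, next -1.97), Eif2ak2 (0.50, next -0.21) and Dtx3l (0.85, next 0.26). On day 0 the same position, the first array of batch 1, was high for Zbp1 (-1.46, next -2.67), the second array of batch 1 was low for Usp18 (-5.11, next -4.50) and the first array of batch 3 was low for Parp9 (0.63, next 1.0). On day 10 the second array of batch 1 was high for Ifit1 (-2.41, next -2.96). None of these was tested further.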

How the results depend on the processing

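The fit that was varied is the one with the batches of the array files alone, so its counts are not those of genes said to have risen. Under the alternatives run, 20 to 31 genes were higher from day 0 to day 22 (30 in that fit) and 0 lower, with the 20 on slide 2 alone. From day 0 to day 10 (26 higher) the count was 15 with the value table's batches, 14 with the authors' value table, 9 on slide 1 alone and 2 on slide 2 alone, and 5 to 25 without 1 batch over both assignments. The 1 lower gene of that interval was 0 with no filter on dim probes, the batches of the value table with or without the replicate block, either slide alone, the authors' value table and without the first array of batch 1 of day 22, and 0 to 1 without 1 batch. From day 10 to day 22 (18 higher) the count was 11 with no filter, 1 with the value table's batches, 8 with the replicate block as well, and 0 on slide 1 alone, on slide 2 alone, with the authors' value table and under that table's batches without the first array of batch 1 of day 22, and 0 to 18 without 1 batch. With the replicate block and the batches of the array files the 3 counts higher were 27, 21 and 31. The median SD of day 0 was 0.251 with normexp in place of 0.369, and that of day 10 was 0.164 to 0.237 without 1 batch. The genes that differed between batches on day 22 went from 0 to 2 with the batches of the value table.

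Signs that turned were those of genes that passed in no fit from day 0 to day 22. Iigp1 (-0.06) was 0.08 on slide 1 alone and 0.00 on slide 2 alone, and Stat2 (0.04) was -0.03 on slide 1 alone and -0.06 without the first array of batch 1 of day 22, with either assignment. Without 1 batch Ifit2, Iigp1 and Stat2 had ranges of -0.30 to 0.06, -0.32 to 0.11 and -0.12 to 0.16. The cause of these shifts was not tested. A slide alone holds fewer arrays and no filter tests more features. The share of all features called is not given for these alternatives, so their counts have no background beside them. Where an arm was left with 1 sample, it was assumed to vary like the other groups. Signal near background limits Oas3, Rsad2, Ifi44 and Trim30a on day 0.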
